A study of Mus musculus with 6 samples.

Results

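The cytosolic ribosomal protein genes were examined in mouse fibrosarcoma cells with and without knockdown of Rras2, a RAS-related GTPase. A gene was taken as a member when its symbol in the platform annotation starts with Rpl, Rplp or Rps followed by a digit, leaving out the Rps6k kinases and symbols that end in -ps and a number. Where a symbol had several probe sets, the brightest was to be kept, but each member had 1. The rule found 67 genes of 19505 measured, 41 named for the large subunit and 26 for the small subunit. RefSeq (GRCm38.p6) lists 88 protein-coding genes that fit the same rule, and the others were not analysed here. Of the 67 members, 54 were core ribosomal proteins (33 large, 21 small), 12 were like-genes or retrogenes of a core protein, and 1, Rps19bp1, encodes a protein that binds Rps19 and is no part of the ribosome.

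The cells of both groups derive from a C57BL/6 fibrosarcoma with the activated Rras2(Q72L) allele and were grown in DMEM with fetal bovine serum. The controls were transduced with the empty lentiviral vector pLKO (3 arrays, replicates 1 to 3) and the knockdown cells with an shRNA against Rras2, sh#89 (3 arrays, replicates 4 to 6). A single shRNA was used. Whether the 3 samples of a group were grown as separate cultures is not stated in the labels, so every p-value rests on a spread between samples that may be technical. The values are log2 RMA signals, in which the arrays have been brought to a common distribution, so each value is relative to the other transcripts on its array.

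A ribosome is built from a large and a small subunit, each a scaffold of ribosomal RNA dressed with many small, mostly basic proteins. The small subunit reads the mRNA, and the large subunit joins amino acids and threads the new chain through its exit tunnel. The mRNAs of ribosomal proteins are among the most abundant of growing cells, and most start with a C and a run of pyrimidines, the TOP (terminal oligopyrimidine) tract, through which mTORC1 and LARP1 control their translation. MYC and RNA polymerase I help set the output of new ribosomes in many tumors, in part through rRNA synthesis and assembly factors.

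The start of the mRNA is the feature this family is best known for, so it was read from the RefSeq promoter table (GRCm38.p6), which held 54 of the 67 members. A TOP start, a C at the annotated start followed by at least 4 bases that are C or T, was found at an annotated start of 13 of these 54 members (24.1%) and of 813 of all 27025 genes in the table (3.01%). When the C could lie up to 5 bases either side of the start, 24 members (44.4%) and 21.2% of all genes had one. The 6 core members with a TOP start and the lowest log2 differences are shown with 20 bases before the start and 20 from it, with the C and its pyrimidine run in capitals. They are Rps6 (chr4:86857348-86857387, minus strand), Rps15a (chr7:118116128-118116167, minus), Rpl35a (chr16:33056462-33056501, plus), Rps21 (chr2:180257359-180257398, plus), Rpl35 (chr2:39005112-39005151, minus) and Rpl14 (chr9:120571497-120571536, plus).
Rps6: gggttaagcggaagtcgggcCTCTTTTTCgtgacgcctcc
Rps15a: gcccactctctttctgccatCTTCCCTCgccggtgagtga
Rpl35a: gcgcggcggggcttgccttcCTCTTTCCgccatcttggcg
Rps21: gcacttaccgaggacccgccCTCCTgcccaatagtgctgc
Rpl35: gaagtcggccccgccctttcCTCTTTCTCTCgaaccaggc
Rpl14: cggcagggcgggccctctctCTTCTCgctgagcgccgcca

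The run is longest in Rpl35, at 11 bases with its C, and shortest in Rps21, at 5 bases. Annotated starts can lie some bases from the start a cell uses, so a member without a match may still carry a tract.

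The same 300-base windows, from 250 bases before the start to 50 after, were searched on both strands for the core of the ETS factor site, CCGGAAG, which is common in promoters of housekeeping genes. It was present in 20 of the 54 members (37%), against 9.93% of all genes in the table. In the core members, 19 of 24 match positions lay within 100 bases of an annotated start. The same site can count more than once where a gene has several starts, as among the Rps21 positions -88, -26, -158 and -96. The 24 are therefore not a count of separate sites. Matches of the 3 core members with the lowest log2 differences among those that had one are shown in capitals, from Rps26 (chr10:128626703-128626732, minus), Rps6 (chr4:86857441-86857470, minus) and Rpl37 (chr15:5116635-5116662, plus, with the motif on the opposite strand).
Rps26: tttaatcttccgCCGGAAGgttaaatagtt
Rps6: gttaatctacgcCCGGAAGtaacgcccctc
Rpl37: ggggtgctttctCTTCCGGtctctttgg

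Counted from an annotated start, these matches lay at -214 in Rps26, -91 in Rps6 and 34 in Rpl37. A match at -23 was also counted in Rpl37, and whether it is the same site from another start was not checked. The SP1 motif GGGCGG was in 55.6% of members and 38.2% of all genes, the E-box CACGTG in 7.41% and 8.09%, and the YY1 motif AAGATGGC in 7.41% and 3.19%. These are descriptions of sequence. The median log2 difference was -0.13 for the 11 core members with a TOP start and -0.13 for the 31 without, and -0.12 for the 18 with the ETS motif and -0.14 for the 24 without.

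Rras2, the targeted gene, was at 10.67, 10.75 and 10.82 log2 units on control replicates 1 to 3 and at 9.09, 9.69 and 9.21 on knockdown replicates 4 to 6, so 37.6% of the control signal remained (limma adjusted p = 0.00163; exact permutation p = 0.1, the smallest that 3 arrays against 3 can give). Over all genes 1017 of 19505 passed limma's threshold of 0.05 on the adjusted p (5.21%), 584 higher and 433 lower in the knockdown. Centring each array on its median turned this split to 506 higher and 567 lower, and testing the 8131 genes above the negative controls gave 749 and 865. The fibroblast genes Vim, Fn1, Col3a1 and Pdgfrb had mean log2 signals above the 95th percentile of the negative-control probe sets (7.92), with 5 of 7 measured fibroblast markers above it in both groups. Those of leukocytes (4 measured), endothelium (4) and epithelium (5) lay below it in both groups. Of 10 skeletal muscle markers 9 rose and 0 fell. Their summed linear signal was 947 to 1241 in the controls and 5081 to 9094 in the knockdown, where 8 of the 10 had means above the negative controls and 0 in the controls. The part of this shift in the ribosomal protein values was not tested.

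The ribosomal protein genes differed little between the groups, nearly all to the same side. No member passed limma's adjusted threshold: 0 of 67 were called lower, against 2.22% of all genes, and 0 higher, against 2.99% (the smallest adjusted p was 0.087), and 14 members had an unadjusted p under 0.05, 14 lower and 0 higher in the knockdown, against 10% of all genes lower at that level. The log2 difference, knockdown minus control, lay below 0 for 64 of 67 members, against 53.2% of all genes. On 41 members all 3 knockdown arrays lay below all 3 controls (13.9% of all genes), and on 0 members all lay above (11.6% of all genes). The median log2 difference was -0.12 for large subunit genes and -0.15 for small subunit genes, which is 91.8% and 90.3% of the control signal, and -0.01 for all genes. Members share their arrays and are not replicates, so these counts say nothing about how often the shift would recur in new samples.

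The 95% interval of the log2 difference lay within 0.5 either way for all 67 members, 4 of which had no mean above the negative controls, and for 16265 of all 19505 genes. The lowest bound, that of Rpl22l1, was 72.3% of the control signal. The median SE of the members' differences was 0.08.

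**Figure D1:**
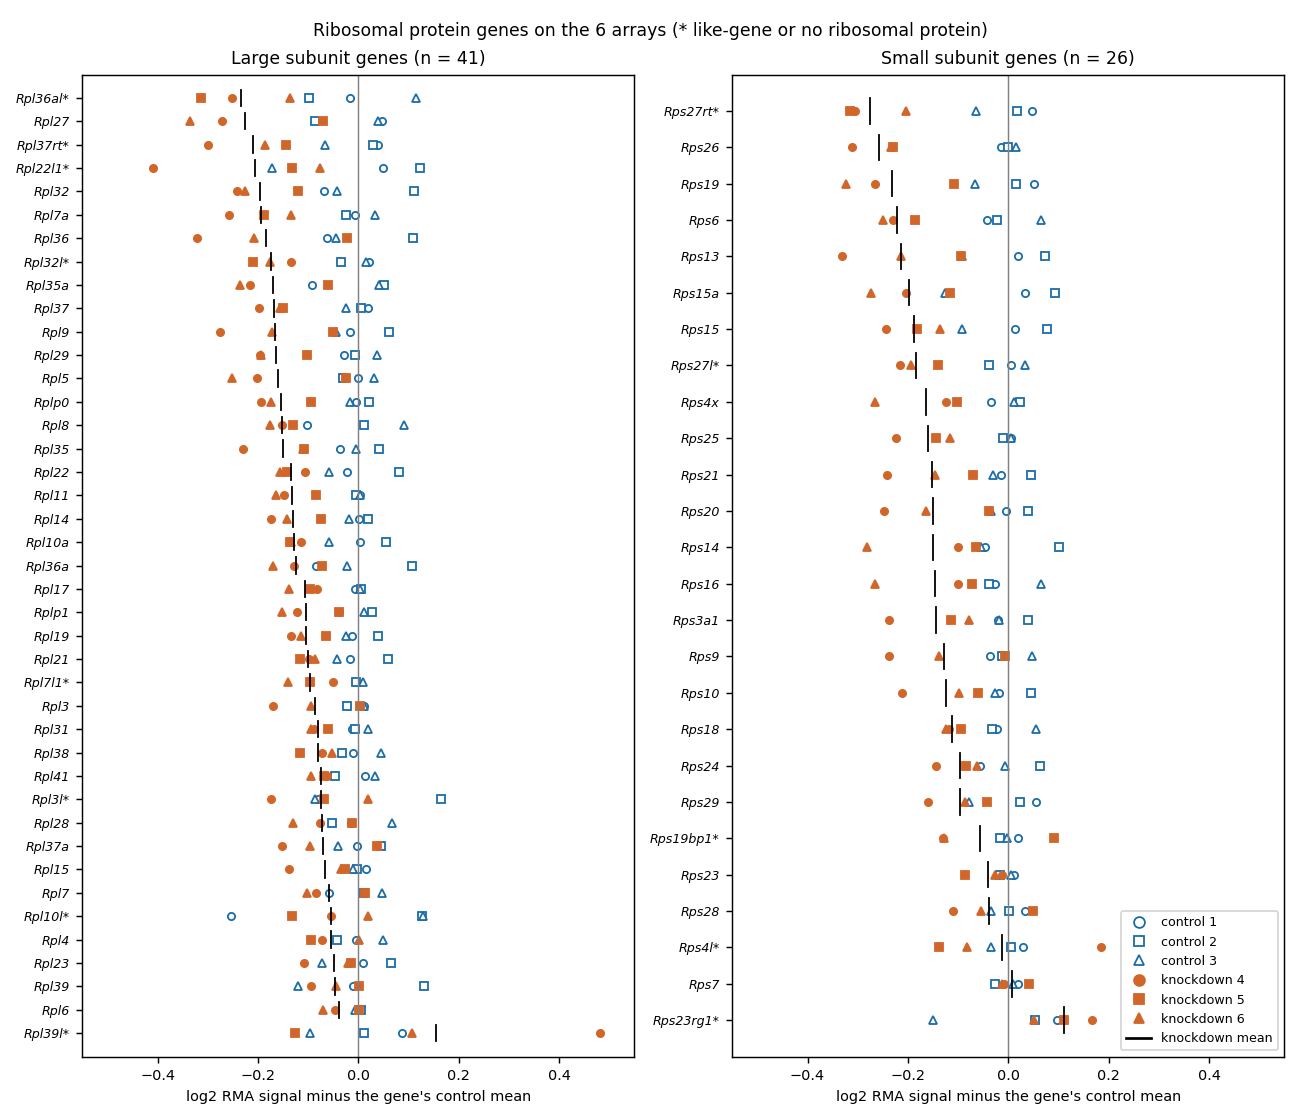
Log2 RMA signal of each of the 67 members on each array, as its deviation from the gene's mean over the 3 controls (x axis, log2 units), with large subunit genes on the left and small subunit genes on the right. Open blue symbols are controls, filled orange symbols are knockdown arrays, and black bars are knockdown means, which lie left of 0 for 64 members.

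Among the core small subunit genes, Rps26, whose protein lines the channel where mRNA leaves the ribosome, had the lowest log2 difference. Its log2 signal was 12.03, 12.04 and 12.06 on control replicates 1 to 3 and 11.73, 11.81 and 11.81 on knockdown replicates 4 to 6. All knockdown arrays lay below the controls, whose range was far narrower than the gap. The log2 difference was -0.26 ± 0.07 (SE), 83.6% of the control signal (95% interval 74.5 to 93.8%), and the adjusted p was 0.0871 in limma.

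Rps6, the substrate for which the S6 kinases are named and the owner of the TOP start shown above, was at 12.44, 12.46 and 12.55 in the controls and 12.25, 12.30 and 12.24 in the knockdown. The groups did not overlap, and the log2 difference was -0.22 ± 0.08 (SE; limma adjusted p = 0.147), or 85.8% of the control signal. Rps19, the gene most often mutated in Diamond-Blackfan anaemia, was at 10.86, 10.82 and 10.74 in the controls and 10.54, 10.70 and 10.49 in the knockdown. Its groups did not overlap either, with knockdown replicate 5 closest to the controls (log2 difference -0.23 ± 0.09, SE; limma adjusted p = 0.18).

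Rps13 and Rps15a, whose proteins belong to the body of the small subunit, had log2 differences of -0.21 and -0.20. Rps14, whose loss of 1 copy is linked to anaemia in the human 5q- syndrome, had a log2 difference of -0.15 ± 0.09 (SE; limma adjusted p = 0.429). At the other end of the core small subunit genes were Rps7 (0.01 ± 0.07, SE), Rps28 (-0.04 ± 0.08) and Rps23, a protein of the decoding centre (-0.04 ± 0.07), in all of which the groups overlapped. Rps7 was at 12.41, 12.36 and 12.40 in the controls and 12.38, 12.43 and 12.38 in the knockdown. It was the core member that did not lie below 0, and its 95% interval ran from 89.7 to 113% of the control signal.

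Among the core large subunit genes, Rpl27, mutated in some cases of Diamond-Blackfan anaemia, had the lowest log2 difference, -0.23 ± 0.09 (SE; limma adjusted p = 0.233). Its log2 signal was 9.38, 9.25 and 9.38 in the controls and 9.07, 9.27 and 9.001 in the knockdown, so replicate 5 lay inside the control range. Rpl32 was at 12.11, 12.29 and 12.14 in the controls and 11.94, 12.06 and 11.95 in the knockdown, without overlap, with a log2 difference of -0.20 ± 0.08 (SE; limma adjusted p = 0.249). Rpl7a was at 11.999, 11.98 and 12.04 in the controls and 11.75, 11.82 and 11.87 in the knockdown, also without overlap, with a log2 difference of -0.19 ± 0.08 (SE; limma adjusted p = 0.202). Rpl36 and Rpl35a followed with -0.18 and -0.17.

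The core large subunit genes nearest to 0 were Rpl6, Rpl39, which lines the exit tunnel, and Rpl23, which faces the small subunit, with log2 differences of -0.04 ± 0.07, -0.05 ± 0.09 and -0.05 ± 0.08 (SE), and their groups overlapped. Rpl6 was at 12.78, 12.78 and 12.77 in the controls and 12.73, 12.78 and 12.71 in the knockdown. Rpl3, a protein close to the site of peptide bond formation, had a log2 difference of -0.09 ± 0.08, with knockdown replicate 5 (12.56) level with the controls (12.57, 12.53 and 12.57). All 33 core large subunit genes lay below 0, from -0.23 to -0.04.

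The members were also read by their place in the ribosome, with no test between places. Rplp0 and Rplp1, which form the stalk that recruits elongation factors, had log2 differences of -0.15 and -0.10, and in both the groups did not overlap. Rpl5 and Rpl11, which bind a small rRNA and, when free, the p53 regulator Mdm2, had log2 differences of -0.16 and -0.13. Rpl11 was at 12.93, 12.92 and 12.93 in the controls and 12.77, 12.84 and 12.76 in the knockdown, without overlap, while 1 knockdown value of Rpl5 lay among its controls. Of the genes for proteins around the tunnel exit, 7 of 9 listed were measured. Their log2 differences ran from -0.15 (Rpl35) to -0.05 (Rpl39), with a median of -0.10. In 6 of the 7 all knockdown arrays lay below all controls, as in 41 of all 67 members and 13.9% of all genes.

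At the mRNA entry and decoding centre 3 of 5 listed genes were measured, Rps15, Rps9 and Rps23, with log2 differences of -0.19, -0.13 and -0.04. Among 13 measured genes whose human orthologs are mutated in Diamond-Blackfan anaemia, 0 passed limma's adjusted threshold, 3 had an unadjusted p under 0.05, 12 lay below 0 and 7 had all knockdown arrays below all controls, with a median of -0.13. Over all genes, 2.22% were called lower, 10% were lower at that unadjusted p, 53.2% lay below 0 and 13.9% had all knockdown arrays below all controls. Rpsa and Fau, small subunit proteins with symbols outside the rule, had log2 differences of -0.09 ± 0.08 each (SE), and their groups overlapped.

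Some members are in common use as reference genes in qPCR. Of 5 such genes listed, 4 were measured, Rplp0, Rpl19, Rpl32 and Rps18. In each of them all 3 knockdown arrays lay below all 3 controls, as in 41 of all 67 members and 13.9% of all genes. Rplp0 was at 12.17, 12.20 and 12.16 in the controls and 11.98, 12.08 and 12.003 in the knockdown. The knockdown mean was 89.9% of the control signal for Rplp0, 93% for Rpl19, 87.3% for Rpl32 and 92.5% for Rps18. The highest and lowest of the 6 arrays differed by 16.1% for Rplp0, 12.7% for Rpl19, 27.6% for Rpl32 and 13.2% for Rps18. None of the 4 passed limma's threshold (adjusted p = 0.306, 0.5, 0.249 and 0.469).

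The like-genes were a mixed group in level and in difference. They include copies made by retrotransposition, which can be near-identical to their parent, so that probes may read both and the signal of copy and parent cannot be told apart here. Rps27rt, a retrogene of Rps27, which is itself not among the measured members, had the lowest log2 difference of all members. It was at 10.25, 10.22 and 10.14 in the controls and 9.90, 9.89 and 10.00 in the knockdown, without overlap (-0.28 ± 0.08, SE; limma adjusted p = 0.087; 82.6% of the control signal). Rpl37rt, a retrogene of Rpl37, had a log2 difference of -0.21 beside -0.17 for Rpl37, and Rpl32l had -0.17 beside -0.20 for Rpl32.

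Rpl36al, an expressed copy of Rpl36a, was at 10.00, 9.91 and 10.13 in the controls and 9.76, 9.70 and 9.88 in the knockdown, without overlap. The log2 difference of Rpl36al was -0.23 ± 0.09 (SE; adjusted p = 0.194 in limma), beside -0.12 for Rpl36a. Rps27l, a paralog of Rps27 known as a p53 target, was at 9.91, 9.87 and 9.94 in the controls and 9.69, 9.76 and 9.71 in the knockdown. Its groups did not overlap, and the log2 difference was -0.18 ± 0.07 (SE; limma adjusted p = 0.217). Rpl22l1, the paralog of Rpl22, overlapped between the groups (-0.21 ± 0.12, SE), and Rpl7l1 did not (-0.10 ± 0.07).

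Several like-genes are known for expression in particular tissues. Rpl3l, which replaces Rpl3 in skeletal and heart muscle, was at 5.12, 5.36 and 5.11 in the controls and 5.02, 5.13 and 5.21 in the knockdown, below that negative-control bound of 7.92 on every array. Its log2 difference was -0.07 ± 0.10 (SE), on arrays where 9 of 10 muscle markers rose. Rpl39l and Rpl10l, best known from testis, had mean log2 signals of 5.16 and 8.24, and the groups of Rpl10l overlapped (log2 difference -0.06 ± 0.11, SE). Rpl39l was at 5.16, 5.09 and 4.98 in the controls and 5.56, 4.95 and 5.18 in the knockdown, so its log2 difference of 0.15 ± 0.14 rested on replicate 4, and without that array it was -0.01. Rps4l and the Rps23 retrogene Rps23rg1 were also below 7.92, with log2 differences of -0.01 and 0.11. The gene for the Rps19-binding protein, Rps19bp1, overlapped between groups (-0.06 ± 0.09, SE). In all, 63 members had a mean above the negative controls, and Rpl3l, Rpl39l, Rps4l and Rps23rg1 did not.

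**Figure D2:**
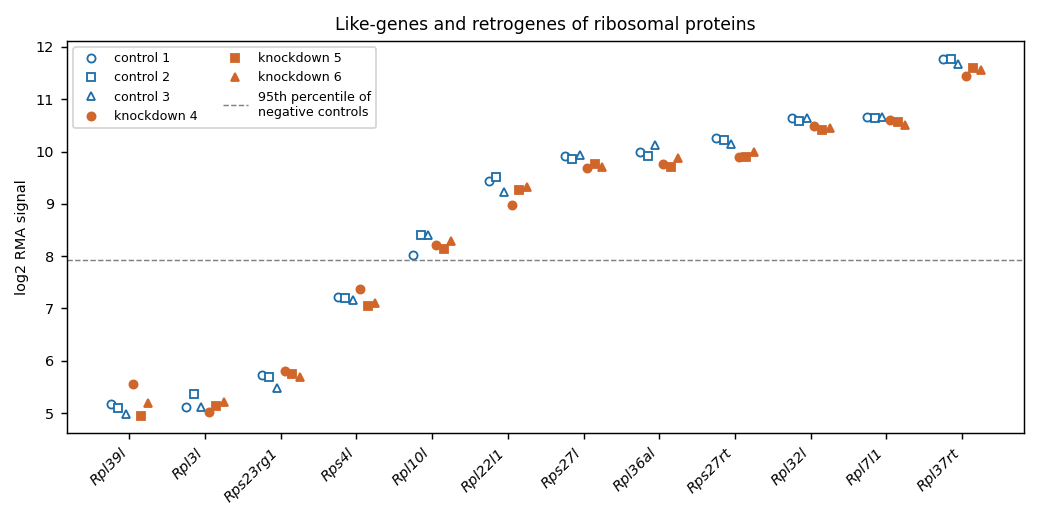
Log2 RMA signal (y axis) of the 12 like-genes and retrogenes on each array, controls as open blue and knockdown arrays as filled orange symbols, ordered by control mean. The dashed line marks the negative controls' 95th percentile, 7.92, with Rpl39l, Rpl3l, Rps23rg1 and Rps4l below it.

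The core members are bright, with a median at the 98.7th percentile of all genes by mean signal. Array signals can be compressed at such levels, and the part of this in the members' values was not tested. The log2 difference was set beside that of other genes of like signal. Between 11 and 12 log2 units the 17 members had a median of -0.15 and 721 other genes one of -0.02. Between 12 and 13 the 28 members had -0.11 and 229 other genes -0.02. In the second of these ranges 27 of 28 members lay below 0, against 57.6% of the other genes. In 19 of the 28 all knockdown arrays lay below all controls, against 29.7% of the other genes. Above 13, the medians were -0.07 for 3 members (Rplp1, Rpl15 and Rps23) and -0.01 for 50 others.

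**Figure D3:**
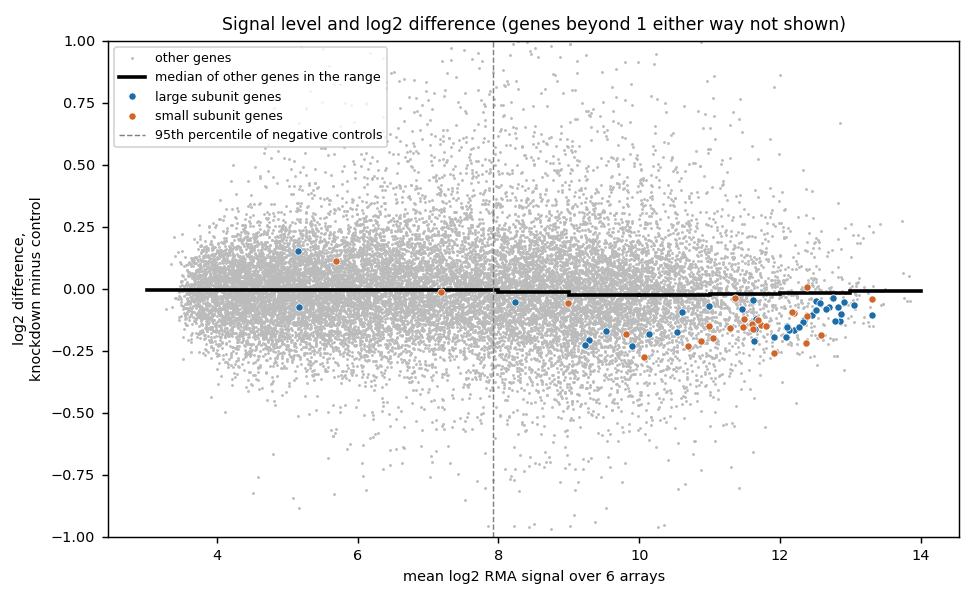
Mean log2 RMA signal over the 6 arrays (x axis) and log2 difference, knockdown minus control (y axis), for large (blue) and small (orange) subunit genes and all other genes (grey). Black bars are the medians of the other genes in each range of signal, which stay between -0.03 and -0.01, while nearly all bright members lie below them.

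The 3 knockdown arrays did not carry the difference equally. Replicate 5 had the highest signal of the knockdown arrays for 44 of 67 members, replicate 6 for 13 and replicate 4 for 10. The median deviation of the members from their 6-array means was -0.10 on replicate 4, -0.07 on replicate 6 and -0.02 on replicate 5, and 0.05, 0.08 and 0.05 on control replicates 1 to 3. On replicate 5, 45 members lay below all controls, against 60 on replicate 4 and 58 on replicate 6. The share of all genes below all controls on a single array was not counted, so these numbers have no background. Rras2 itself was highest of the knockdown arrays on replicate 5, and the muscle markers were lowest there (median deviation 0.95, against 1.73 and 1.53). Without replicate 5 the small subunit median was -0.19 and 17 members had an unadjusted p under 0.05 in limma. Without control replicate 1, 2 or 3 that count was 3, 6 and 8, and without knockdown replicate 4 or 6 it was 3 and 5. In each of these 6 fits 0 members passed the adjusted threshold and 62 to 65 of 67 lay below 0.

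**Figure D4:**
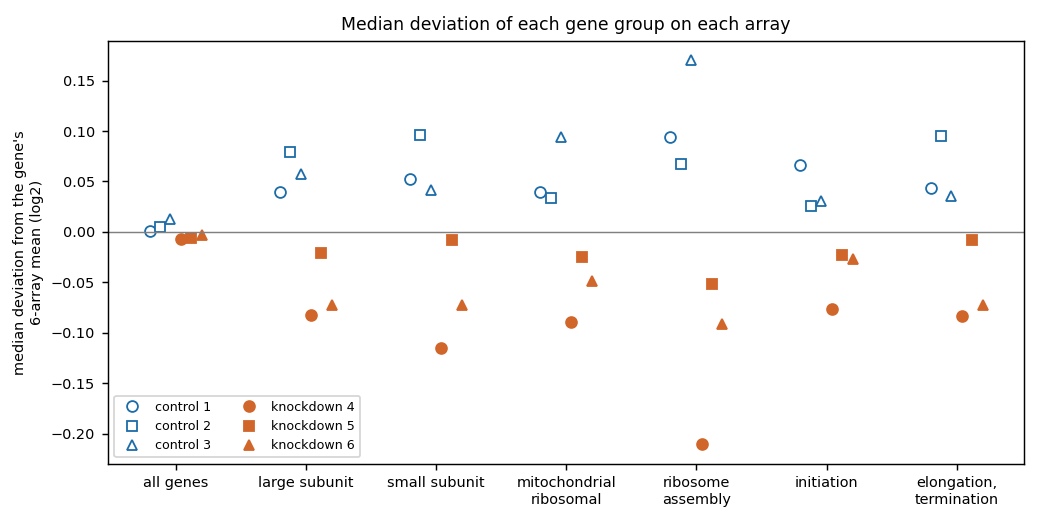
Median deviation of each gene group from the genes' 6-array means (y axis, log2 units) on each array, controls as open blue and knockdown arrays as filled orange symbols. In every ribosome-related group shown the controls lie above 0 and the knockdown arrays below it, with replicate 5 nearest to 0, while the medians of all genes run from -0.0068 to 0.0126.

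Whether members were called depended on limma's variance prior and on which genes were tested. When the variance prior followed the signal level and was made robust to outlying genes, 9 members passed the adjusted threshold, 9 lower and 0 higher (4.83% of all genes were lower at that threshold). They were Rps26 (limma adjusted p = 0.00249), Rps6 (0.00616), Rps27rt (0.0165), Rpl7a (0.0228), Rpl37 (0.0266), Rpl37rt (0.0271), Rps15 (0.0284), Rpl32 (0.0395) and Rps19 (0.0422). With the main prior, the adjusted p of these 9 ran from 0.087 to 0.252. When genes below the negative controls were left out before the test, Rps26, Rps27rt and Rps6 passed (10.6% of the 8131 genes were lower at that threshold). When the dimmest 30% of genes were left out, Rps26 and Rps27rt passed (4.59% of 13653 genes lower).

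Genes of ribosome production and translation were read for comparison. Of 74 measured genes of RNA polymerase I and ribosome assembly, 12 passed limma's adjusted threshold as lower and 0 as higher. Over all genes 2.22% were called lower and 2.99% higher. The median of the 74 was -0.22, and 70 lay below 0, against 53.2% of all genes. Grwd1, a chaperone that binds Rpl3, fell from 9.26 ± 0.04 to 8.68 ± 0.11 (SD, n = 3 each; limma adjusted p = 0.00735). Rrp12, which acts in subunit maturation and export, fell by 0.77 on the log2 scale, Dkc1, the pseudouridine synthase of box H/ACA particles, by 0.70, and Polr1a, the catalytic subunit of RNA polymerase I, by 0.54. Leaving out control replicate 1, 2 or 3 left 3, 3 and 4 calls, and leaving out knockdown replicate 4, 5 or 6 left 1, 13 and 4. Grwd1 passed in all 6 of these fits, Rrp12 and Polr1a in 5 (lost without knockdown replicate 4), and Dkc1 in 2 (lost without control replicates 1 and 2 and knockdown replicates 4 and 6).

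Of 76 mitochondrial ribosomal proteins limma called 1 lower, Mrpl42, by 0.39, and 0 higher, against 2.22% and 2.99% of all genes. Their median was -0.13, and 64 lay below 0, against 53.2% of all genes. The call of Mrpl42 was lost without any 1 of the arrays. Of 29 measured initiation factors 2 were called lower, Eif4g3 by 0.42 and Eif3i by 0.35, and 0 higher (median -0.09). Of the 6 fits without 1 array, Eif4g3 passed in 2, without knockdown replicates 4 and 5, and Eif3i in 1, without knockdown replicate 5. Of 10 elongation and termination factors 0 passed limma's threshold, 2 were lower at an unadjusted p under 0.05 and 10 lay below 0 (median -0.11). Of all genes, 10% were lower at that unadjusted p. The 16 measured TOP mRNA genes for other proteins also had 0 calls in limma, 2 with an unadjusted p under 0.05 and a median of -0.06. Their list shares Eef1a1, Eef1b2, Eef1d, Eef1g and Eef2 with the elongation factors and Eif3e, Eif3f, Eif3h and Eif4b with the initiation factors. It also shares Npm1 with the ribosome assembly genes and Vim with the fibroblast markers.

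**Figure D5:**
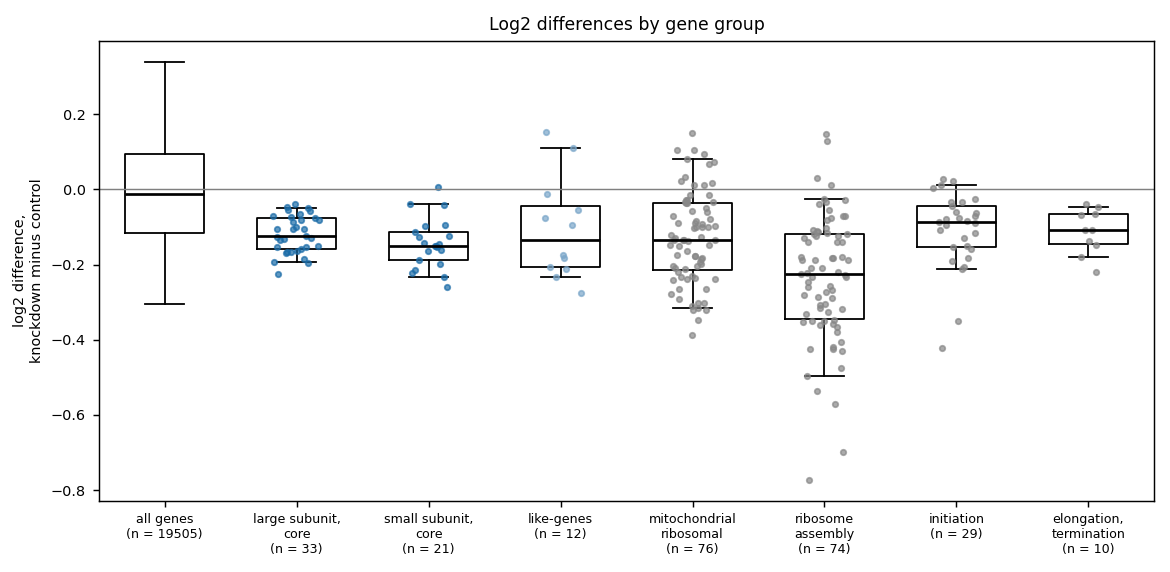
Log2 difference, knockdown minus control (y axis), of core large and small subunit genes, like-genes, other gene groups and all genes; points are genes, boxes span the interquartile range with the median as a line, and whiskers run from the 5th to the 95th percentile. The core members form a narrow band with medians of -0.12 and -0.15, and the ribosome assembly genes spread lower, to -0.77.

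Of 22 listed regulators around mTORC1, the kinase complex that drives TOP mRNA translation, 17 were measured, and limma called 2 higher and 3 lower. The shares called over all genes were 2.99% higher and 2.22% lower. The mTOR-binding inhibitor Deptor rose from 8.82 ± 0.12 to 9.57 ± 0.17 (SD, n = 3 each; limma adjusted p = 0.00609). Pdcd4, an inhibitor of the helicase of translation initiation, rose by 0.70 on the log2 scale. Eif4ebp2 and Eif4ebp1, which bind the cap-binding protein and are released from it by mTORC1, fell by 0.91 and 0.43, and the ERK-activated kinase gene Rps6ka3 by 0.49. All but Eif4ebp1 passed in every fit without 1 array, and Eif4ebp1 passed in 1 of 6, that without knockdown replicate 5.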

How the data were processed

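RNA of 6 samples, 3 per group, was hybridised to Affymetrix arrays. The authors made the deposited table, 1 log2 value per probe set and array, by RMA; the submitters' processing notes name R 3.6.3. Package version, filters and genome build were not given in the sources used here. Of 29129 probe sets, 6923 are controls, and 19572 carry 1 gene symbol (0 several; 2634 of 22206 transcript probe sets none). The brightest probe set was kept for 55 genes with several, which left 19505. All 19572 Entrez identifiers matched RefSeq, with 0 symbols changed. Promoters came from RefSeq (GRCm38.p6); proteins were not analysed here.

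Groups were compared in limma (version 3.58.1, run under R 4.3.3) with group as the sole term of the linear model and moderated variances. P-values are two-sided and were adjusted by Benjamini-Hochberg over 19505 genes, with a threshold of 0.05. Differences are knockdown minus control. No detection calls were at hand, so the 95th percentile of 5222 negative-control probe sets (7.92) served as background. The number of arrays limits the precision. The method was tested on simulated data with changes of at least 0.5 log2 units. These are larger than the difference of any member, so differences of the members' size were not covered. Python 3.11.15 and matplotlib 3.10.9 made summaries and figures.

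Members and lists were chosen with earlier results of these data known; Rpl32l, Rpl37rt and Rps23rg1 were counted as like-genes after the symbols were seen. Named members are, per subunit, the 5 core genes with the lowest and the 3 with the highest difference, all like-genes, stalk, Rpl5, Rpl11 and reference genes, Rps6, Rps14, Rps19, Rpl3, Rps19bp1, Rpsa and Fau, and any called. In related lists, up to 4 called genes are named, and up to 2 the other way. Other names (Rpl37, Rps15, Rps9, Rpl35, Rpl36a and those in captions) were chosen after their values were seen or by place or motif. Alternatives were 3 normalizations, 2 filters, every or averaged probe sets, trend and robust eBayes, array weights, 2 other member rules and leaving out each array.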

Additional observations from a re-analysis of the deposited data

How the results depend on the processing

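No paired analysis was possible because the groups share no replicate numbers. The count of called ribosomal protein genes, 0, stayed 0 under a second quantile normalization, median centring, cyclic loess, every or averaged probe sets, array weights, core genes only, with Rpsa and Fau added, and without any 1 array (0 to 0); it was 2 without the dimmest 30% of genes, 3 above the negative controls and 9 with trend and robust eBayes. The large subunit median was -0.16 with centring and -0.094 with cyclic loess, where the medians of all genes moved to -0.05 and 0.00064; without 1 array it ran from -0.13 to -0.10 and the small subunit median from -0.19 to -0.11. All genes called numbered 1614 above the negative controls, 1908 with trend and robust eBayes, and 392 to 1136 without 1 array. Ribosome assembly calls were 19 without dim genes, 29 above the negative controls, 29 with trend and robust eBayes, and 1 to 13 without 1 array. Mitochondrial ribosomal calls were 3 with centring, 0 with loess, 3 without dim genes, 13 above the negative controls, 9 with trend and robust eBayes, 2 with array weights, and 0 to 1 without 1 array. Initiation calls were 1 with a second quantile normalization, 1 with loess, and 0 to 2 without 1 array. Elongation calls and TOP calls were each 1 above the negative controls and 2 with trend and robust eBayes. Leaving out genes and fewer arrays change the number tested or the degrees of freedom; for the normalizations and the variance prior the cause was not tested. Signs turned for genes near 0: without 1 array Rpl10l ran from -0.18 to 0.0086, Rpl39l from -0.010 to 0.29, Rpl3l from -0.12 to 0.0078, Rps4l up to 0.051, Rpl39 up to 0.018 and Rps7 from -0.011 to 0.016. Rpl10l was 0.014 and Rps7 -0.0024 with array weights, Rps7 was -0.034 with centring, and Rpl6 was 0.0020 with a second quantile normalization. Protein sequences and probe sequences were not used here, so copies and parents could not be separated.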

Other observations

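Rpl31-ps12, left out by the member rule as a pseudogene of Rpl31, was at 11.95, 12.02 and 11.98 log2 units in the controls and 11.94, 11.90 and 11.88 in the knockdown, without overlap. The log2 difference of -0.08 ± 0.07 (SE; adjusted p = 0.603 in limma) stood beside -0.08 ± 0.07 for Rpl31. The 2 can share probes, and their signals cannot be told apart.

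Among the kinases the rule leaves out, the S6 kinase gene Rps6kb2 had a log2 difference of -0.11 ± 0.08 and Rps6ka5 had 0.09 ± 0.11 (SE), and neither passed limma's threshold (adjusted p = 0.496 and 0.725). Rps6kl1 was at 4.43 in the controls and 4.42 in the knockdown, below the 95th percentile of negative-control probe sets (7.92). Larp1, which binds TOP mRNAs, had a log2 difference of -0.12 ± 0.07 (SE), with the groups not overlapping, and Mtor one of -0.10 ± 0.10 with overlap. Myc had -0.34 ± 0.12 without overlap and did not pass (limma adjusted p = 0.161).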
